A study of Mus musculus with 33 samples.

Results

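The genes described here are 35 listed genes of epithelial desmosomes, tight junctions and adherens junctions, with a few regulators, followed across 7 groups of mouse thymus arrays; 34 of them were among the 18193 genes named on the array. Cells of an epithelium are held together by desmosomes, which tie the keratin filaments of neighbouring cells to each other, by adherens junctions built on cadherins and catenins, and by tight junctions, whose claudins and MARVEL proteins seal the space between cells. In the thymus the epithelium is not a sheet but an open network that holds the developing T cells, and desmosomes are a classical mark of its cells under the electron microscope. EpCAM and E-cadherin are surface proteins of thymic epithelium, and claudin-3 and claudin-4 are known from a part of the medullary epithelium of the mouse.

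The members were taken as every probe set that carried 1 of 35 listed gene symbols. Dsg3 (desmoglein 3) was not analysed here. The other 34 genes had 74 probe sets, and 21 genes had more than 1. For testing, each gene was represented by the probe set with the highest mean among those above the median of their array on at least 3 arrays, and 33 members passed this filter: 11 of 12 listed desmosome genes, 12 of 13 of the tight junction, all 6 of the adherens junction (with Epcam), both polarity genes and both regulators of the epithelial programme. Cldn8, which encodes a claudin known from kidney, did not pass, since its single probe set stayed below the array median on all 33 arrays, and its highest value, 111, was in whole medulla.

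The arrays carried RNA of C57BL/6J male mice aged 4 to 6 weeks, with no allele or treatment that differs between groups. Dissected tissue gave 23 arrays: whole medulla (n = 7), whole cortex (n = 7), and 3 zones of the cortex, perimedullary, subcapsular and central (n = 3 each). Sorted cells gave the other 10: medullary thymocytes, gated as CD45+ with high CD3 (n = 5), and cortical thymocytes, gated as CD45+ with no or low CD3 and carrying CD90 or CD117 (n = 5). By their titles the replicates are biological, but no label ties an array to an animal, so regions of 1 animal may stand on several arrays, and p-values measure only the spread between arrays. The kit used to isolate RNA differed between dissected tissue and sorted cells, and its effect cannot be told apart from theirs. Values are MAS5 signals, linear array brightness scaled within each array; a fold change is the difference of group means of log2(signal + 26.2), which understates the change of weak signals, and signals are compared between groups for the same probe set only. A gene is called higher or lower where limma's Benjamini-Hochberg adjusted p over all 13463 genes tested was below 0.05 and the absolute log2 fold change at least 1.

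The median signal of an array ranged from 71.9 to 163. On 13 arrays the value exceeded by 0.1% of the probe sets was above 42000: 5 of whole medulla, 5 of whole cortex and 3 of medullary thymocytes. The 9 arrays of cortical zones lay at 16919 to 19984. Marker genes fitted the labels: the summed signal of 7 medullary epithelial markers was 16649 to 19085 in whole medulla, 808 to 1245 in whole cortex, 1634 to 1770 in perimedullary, 894 to 1048 in subcapsular and 998 to 1099 in central cortex, and 194 to 442 in medullary and 286 to 399 in cortical thymocytes. The medulla arrays also held more signal of 7 mature dendritic cell markers (34156 to 51240, against 3496 to 5247 in whole cortex), and less of 6 thymocyte markers (12754 to 20829, against 93288 to 115804). Sorted thymocytes differed in both sums too. The dendritic cell markers summed to 8514 to 10943 in medullary and 172 to 405 in cortical thymocytes. The thymocyte markers summed to 26819 to 38686 in medullary and 87069 to 94835 in cortical thymocytes. Whole medulla held more than whole cortex of mesenchyme and mesothelium (11208 to 14564, against 3438 to 6152) and of endothelium (1258 to 1827, against 644 to 1111). The same held for adipocytes (4574 to 7896, against 1982 to 3978), macrophages and B cells. The endothelial sum was 841 to 1354 in medullary and 789 to 981 in cortical thymocytes. There 5 of its 6 markers were above the array median on no array. Cortical epithelial markers were lower in whole medulla (15836 to 20938, against 65451 to 90102). Parathyroid, erythroid and platelet markers, and those of both epithelia, overlapped. The part of these mixtures in the results below was not tested, and in bulk tissue more cells of a type and more RNA per cell cannot be told apart.

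Junction genes were mostly higher in the medulla. Of the 33 members, 22 rose in whole medulla over whole cortex and 0 fell. Of all genes tested, 18.5% were called higher and 5.38% lower. At an unadjusted p below 0.05, 2 members were lower, Ctnnb1 and Evpl. The median log2 fold change of the members was 1.36, against 0.11 over all genes tested, and in 21 members the 2 groups of arrays did not overlap, as in 29.9% of all genes. Cldn7, Marveld3, Pkp2, Cldn3 and Ocln reached the 3 arrays of the filter only with those of whole medulla, and 4 of these 5 were called; of the other 28 members, 18 were. The tight junction had 9 of 12 members higher, the desmosome 7 of 11, the adherens junction 5 of 6, the regulators 1 of 2 and polarity 0 of 2. With the fit limited to arrays with a wide upper tail (5 and 5 of these groups) 23 members were higher, and with it limited to those without (2 and 2), 19. Both fits kept the arrays of other groups of the same class, which also entered the estimate of the spread.

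The largest rise was that of Cldn7, a claudin of many simple and stratified epithelia that binds EpCAM. Its signals (lowest, median and highest) were 748, 890.1 and 1192 in whole medulla, against 3.45, 4.54 and 48.0 in whole cortex (log2 fold change 4.53, SE 0.25, adjusted p = 7.91e-18). No whole cortex array had Cldn7 above the array median, and no array of the cortical zones or of thymocytes did either, so its signal stood clear only in whole medulla. Cldn1, a claudin essential to the skin barrier, had 669, 909 and 1321 in whole medulla, against 63.6, 79.4 and 127 in whole cortex (log2 fold change 3.06, SE 0.18, adjusted p = 8.38e-17). F11r, the junctional adhesion molecule JAM-A, which leukocytes also carry, had 1415, 1646 and 2049 in whole medulla, against 176, 214 and 261 in whole cortex (log2 fold change 2.82, SE 0.13, adjusted p = 6.9e-20). The lowest medulla array was several times the highest cortex array for both genes. The other passing probe set gave less for both: 0.73 for Cldn1 and -0.07 for F11r on the log2 scale, with signals of at most 172 and 147 on any array.

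Marveld2 (tricellulin, which seals the corners where 3 cells meet), Cldn3, Marveld3, Cldn12, Tjp1 (the scaffold ZO-1) and Cgn (cingulin, which links tight junctions to actin) also rose, by 2.44, 2.30, 2.28, 1.84, 1.56 and 1.02 on the log2 scale. Cldn3 had 218, 343 and 485 in whole medulla, against 22.1, 42.9 and 146 in whole cortex. The rise of Cgn lay at the threshold: it was 0.76 without whole cortex replicate 2, 0.94, 0.997 and 0.98 without whole medulla replicates 1, 2 and 6 in turn, and in each case below the fold threshold. Cldn4, Tjp3 (ZO-3) and Ocln (occludin) did not pass the test. Cldn4 had 343, 551 and 693 in whole medulla, against 176, 326 and 517 in whole cortex (log2 fold change 0.68, SE 0.19, adjusted p = 0.00254), and its groups overlapped. For Ocln the probe set chosen by its mean gave 0.76, while its other passing probe set gave 2.23, and with their mean Ocln was called (1.50, adjusted p = 7.57e-07).

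Cldn3 and Cldn4 lie next to each other on mouse chromosome 5 with no protein-coding gene between them, and only Cldn3 was called. RefSeq promoter windows (GRCm38.p6, 250 bases before to 50 after the annotated start) were given for 18 of the 34 genes, as 27 windows. They were searched on both strands for the E-box CACCTG, a sequence that the repressors Zeb and Snail are known to bind, for AACCGGTT and AACCNGTT, forms of the Grainyhead-like motif (the first is contained in the second), and for TATAAA. The E-box stood in 15 of the 27 windows, of 11 genes, against 20.2% of all 32851 windows; windows of 1 gene can overlap. AACCNGTT stood in 1 window, that of Cgn (2.09% of all windows), AACCGGTT in none (0.146%), and TATAAA in 4 windows of 3 genes (13.6%). A match is only a run of letters. The windows of 5 genes are shown with each E-box in capitals, as the pair of neighbouring claudins and the 3 members with an E-box that had the largest rises in whole medulla over whole cortex: Cldn7 on chr11:69965171-69965470, Epcam on chr17:87635729-87636028, F11r on chr1:171437311-171437610 and Cldn3 on chr5:134985964-134986263, all on the plus strand, and Cldn4 on chr5:134946885-134947184 on the minus strand.
Cldn7: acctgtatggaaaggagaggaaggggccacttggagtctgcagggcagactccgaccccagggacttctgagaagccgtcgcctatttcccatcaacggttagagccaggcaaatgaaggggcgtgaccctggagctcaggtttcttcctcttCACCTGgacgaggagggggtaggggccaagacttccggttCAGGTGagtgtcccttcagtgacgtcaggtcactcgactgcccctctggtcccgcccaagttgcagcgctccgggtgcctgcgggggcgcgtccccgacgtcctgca
Epcam: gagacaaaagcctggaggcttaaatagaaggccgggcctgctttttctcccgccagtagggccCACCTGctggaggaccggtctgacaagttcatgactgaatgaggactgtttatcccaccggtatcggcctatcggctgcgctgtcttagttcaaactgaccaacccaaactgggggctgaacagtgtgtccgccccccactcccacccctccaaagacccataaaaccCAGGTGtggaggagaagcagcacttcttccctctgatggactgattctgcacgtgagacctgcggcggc
F11r: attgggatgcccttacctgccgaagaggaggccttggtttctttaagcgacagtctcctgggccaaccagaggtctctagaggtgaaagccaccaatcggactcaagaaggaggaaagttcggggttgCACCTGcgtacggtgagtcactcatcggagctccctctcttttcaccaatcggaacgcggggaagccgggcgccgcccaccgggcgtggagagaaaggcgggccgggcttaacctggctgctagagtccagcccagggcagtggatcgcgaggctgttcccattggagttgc
Cldn3: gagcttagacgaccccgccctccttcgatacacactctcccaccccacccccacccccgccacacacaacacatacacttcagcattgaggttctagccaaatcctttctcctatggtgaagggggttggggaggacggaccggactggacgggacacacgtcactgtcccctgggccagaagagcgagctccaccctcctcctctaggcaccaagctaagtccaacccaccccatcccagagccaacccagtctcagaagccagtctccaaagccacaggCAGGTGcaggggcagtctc
Cldn4: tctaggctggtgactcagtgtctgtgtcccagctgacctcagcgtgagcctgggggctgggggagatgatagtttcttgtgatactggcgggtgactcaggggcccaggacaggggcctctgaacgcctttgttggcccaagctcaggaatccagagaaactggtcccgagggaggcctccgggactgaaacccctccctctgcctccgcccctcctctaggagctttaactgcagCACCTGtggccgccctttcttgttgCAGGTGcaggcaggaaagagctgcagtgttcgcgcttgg
The E-boxes begin 97 and 57 bases before the start in Cldn7, 187 and 19 before it in Epcam and 122 before it in F11r, at base 32 after it in Cldn3, and 14 bases before and at base 12 after it in Cldn4. These 5 were chosen among the 11 genes that held an E-box. Cldn7 had another window, of another annotated start, on chr11:69964529-69964828, and it held no E-box.

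Among desmosome genes the cadherins Dsg2 and Dsc2 rose most. Dsg2, the desmoglein of simple epithelia, had 4926, 5750 and 6764 in whole medulla, against 458, 525 and 627 in whole cortex (log2 fold change 3.36, SE 0.13, adjusted p = 4.01e-22). Dsc2, a desmocollin, had 1039, 1077 and 1524 in whole medulla, against 159.9, 275 and 434 in whole cortex (log2 fold change 2.04, SE 0.16, adjusted p = 1.35e-13). Perp, a membrane protein needed for stable desmosomes, had 2987, 3349 and 3799 in whole medulla, against 948, 1143 and 1330 in whole cortex (log2 fold change 1.55, SE 0.13, adjusted p = 2.29e-12). In all 3 genes every medulla array lay above every cortex array. Dsc3, the second desmocollin, rose by 1.41, and the plakophilins Pkp2 and Pkp1, which anchor the desmosomal cadherins, by 1.43 and 1.22 on the log2 scale. The arrays of Pkp2 overlapped, and its fold change was 0.73 and not called over the 2 and 2 arrays without a wide upper tail, where that of Pkp1 was 0.84. The other passing probe set of Pkp2, above the array median on whole medulla arrays only, gave 2.36 over all arrays of these groups.

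Dsp, desmoplakin, the link of desmosomes to keratin, rose least of the called desmosome genes and had a strong signal in both compartments, 6490, 8311 and 11025 in whole medulla, against 2307, 4186 and 4899 in whole cortex (log2 fold change 1.12, SE 0.17, adjusted p = 1.02e-06). Its cortex arrays fell into 4140 to 4899 on the 5 with a wide upper tail and 2676 and 2307 on replicates 6 and 7, and the fold change was 0.96 within the wide-tail arrays, 1.51 within the others and just under the threshold of 1 without whole cortex replicate 7. Jup, plakoglobin, which serves both desmosomes and adherens junctions, had 232, 448 and 590.0 in whole medulla, against 305, 368 and 840.1 in whole cortex (log2 fold change 0.01, SE 0.21, adjusted p = 0.959). The plakin genes Ppl and Evpl, whose products join the envelope of stratified cells, had fold changes of 0.99 and -0.61, and Pkp3 0.88, none of them called. Ppl was past the threshold on leaving out any of 7 single arrays, with the largest value, 1.22, without whole cortex replicate 7.

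Cdh1, E-cadherin, the main cadherin of epithelial adherens junctions, had 4972, 5334 and 6099 in whole medulla, against 401, 576 and 767 in whole cortex (log2 fold change 3.22, SE 0.14, adjusted p = 2.96e-20). Epcam had 2237, 2797 and 4363 in whole medulla, against 188, 257 and 342 in whole cortex (log2 fold change 3.38, SE 0.18, adjusted p = 2.48e-18). Neither gene overlapped between compartments. Ctnna1 (alpha-catenin), Ctnnd1 (p120 catenin) and Cdh3 (P-cadherin) rose by 1.36, 1.31 and 1.30 on the log2 scale, but the arrays of Cdh3 overlapped and its fold change was 0.61 and not called over the arrays without a wide upper tail. Ctnnb1, beta-catenin, which also serves Wnt signalling in many cells, averaged 12978 ± 1086 in whole medulla and 16162 ± 3518 in whole cortex (SD, n = 7 each; log2 fold change -0.29, SE 0.10, adjusted p = 0.0092) and was not called.

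Esrp1, a splicing regulator that sets epithelial isoforms, had 828, 1170 and 1280 in whole medulla, against 112, 138 and 171 in whole cortex (log2 fold change 2.78, SE 0.18, adjusted p = 1.59e-15). Grhl2, a transcription factor that activates junction genes, had 520.5, 613 and 653 in whole medulla, against 197, 319 and 442 in whole cortex (log2 fold change 0.96, SE 0.17, adjusted p = 4.61e-06). The arrays of Grhl2 did not overlap, but its change lay just under the fold threshold, and it was past it without whole cortex replicate 3 (1.02), whole cortex replicate 5 (1.05) or whole medulla replicate 7. The polarity genes Crb3 and Pard6b, which place the apical side of an epithelial cell, had fold changes of 0.35 and 0.51 and overlapping arrays. Their other probe sets gave more: 2.09 and 0.80 for Crb3 and 1.13 for Pard6b, the 2.09 and the 1.13 with no overlap, and with the mean of its probe sets Crb3 was called (1.08, adjusted p = 5.22e-05). The other passing probe set of Grhl2 gave -0.17. Of the 22 called members, 11 had other passing probe sets, 17 in all, of which 16 were also higher in medulla, 15 of them by at least 1 on the log2 scale.

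**Figure D1:**
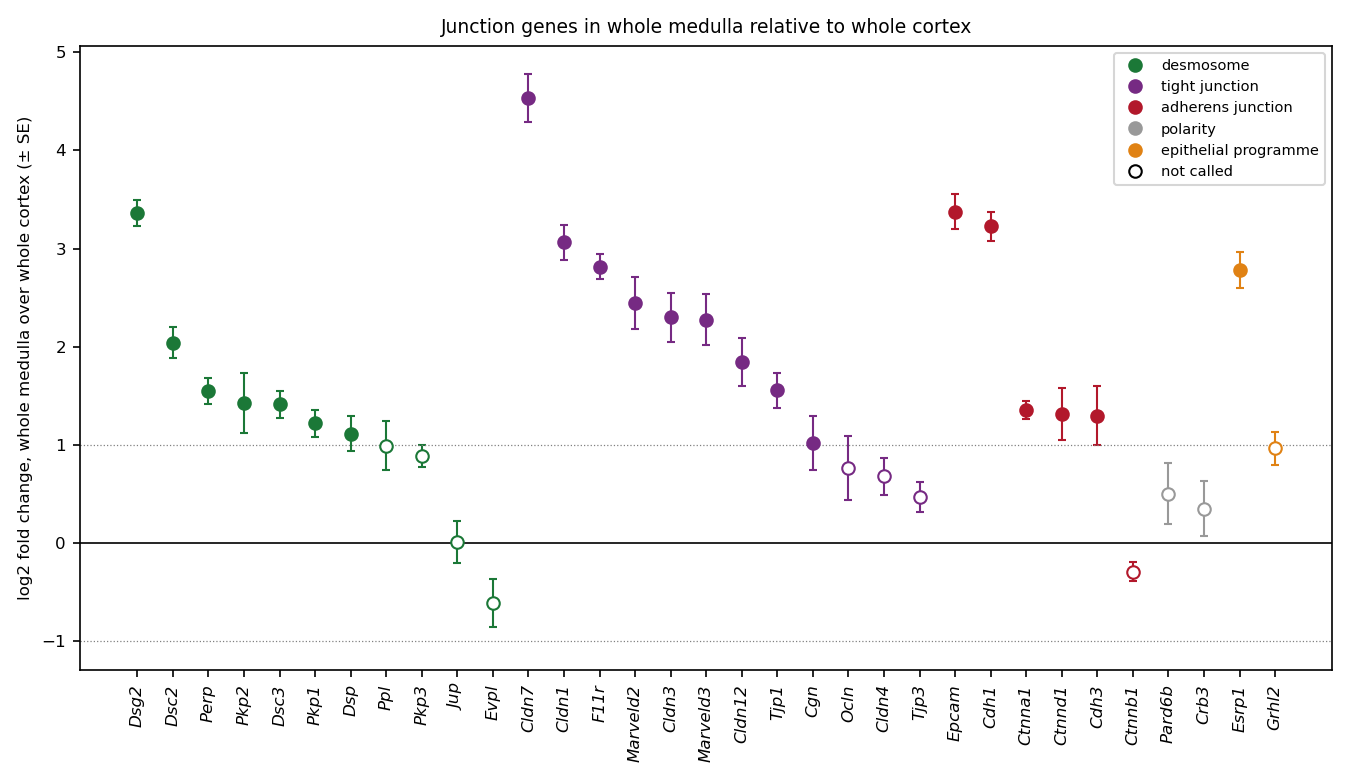
Fitted log2 fold change of whole medulla over whole cortex (7 arrays each) for the 33 members tested, ordered by role and size, with bars for the standard error; filled points were called and open points were not. Cldn7 stands highest at 4.53, and no member lies below -1.

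The rises were not equal. Within each array every member was set against Epcam as a difference of log2 values, and the difference was compared between whole medulla and whole cortex by an exact two-sided permutation test over the 14 arrays (3432 arrangements, smallest possible p 0.000583), adjusted over the 32 other members. Epcam had the second largest rise of the members. Each ratio is the member's fold change less that of Epcam. The 28 members found lower relative to it therefore restate the order of the folds. The other passing probe set of Epcam rose by only 1.61 on the log2 scale, so which members lie above or below Epcam depends on its probe set. Ratios to that probe set were not tested. Cldn7 was higher relative to Epcam, by 1.15 (adjusted p = 0.00243), but its cortex signals were below the array median on every array and the size depends on the offset: it was 2.18 with an offset of 6.55. Dsp changed by -2.26 relative to Epcam and Evpl by -3.99 (adjusted p = 0.000981 each, exact permutation test). Dsg2 (-0.02, adjusted p = 0.934), Cdh1 (-0.15, adjusted p = 0.445) and Cldn1 (-0.31, adjusted p = 0.264) did not pass this test, which does not show that they changed alike. Against the mean of the keratins Krt8 and Krt18, which averaged 10325 ± 1059 and 8456 ± 702 in whole medulla and 8643 ± 1174 and 10904 ± 1536 in whole cortex, 26 of these 32 members were higher in medulla and 0 lower. The keratin mean differed little between compartments, so these ratios restate the plain fold changes (for Dsp 1.16, against a fold change of 1.12). A ratio within an array shows an unequal change, and the 2 and 2 arrays without a wide upper tail allow no p below 0.333; there 30 of the 32 members had the same sign.

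Other junction and epithelial genes were taken from a list of 86 names, of which 73 were on the array and 59 tested: 26 were higher in whole medulla over whole cortex (18.5% of all genes were) and 3 lower (5.38% of all genes), with a median of 0.72. The largest rises were those of Dsg1a, a desmoglein of stratified epithelium (967 ± 158 in whole medulla, against 27.0 ± 35.2 in whole cortex, SD, n = 7 each; log2 fold change 4.42, SE 0.26, adjusted p = 4.45e-17), and of Itgae, the integrin chain on lymphocytes that binds E-cadherin (3511 ± 637 in whole medulla, against 198 ± 35.7 in whole cortex; 3.97, SE 0.13, adjusted p = 3.02e-24). Itgae was also strong in sorted medullary thymocytes (4964 ± 1376, n = 5), against 65.8 ± 16.9 in cortical thymocytes (n = 5), while Dsg1a was weak in both (10.3 ± 10.2 in medullary and 14.7 ± 11.4 in cortical thymocytes). The 3 falls were those of Zeb1, a repressor of epithelial genes named here to complete the count after its value was seen, at -1.13 (SE 0.10), of Esrp2, the paralogue of Esrp1, at -1.42 (SE 0.25, adjusted p = 7.35e-06), and of Magi3, a scaffold protein, at -1.18 (SE 0.09, adjusted p = 2.21e-13).

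**Figure D2:**
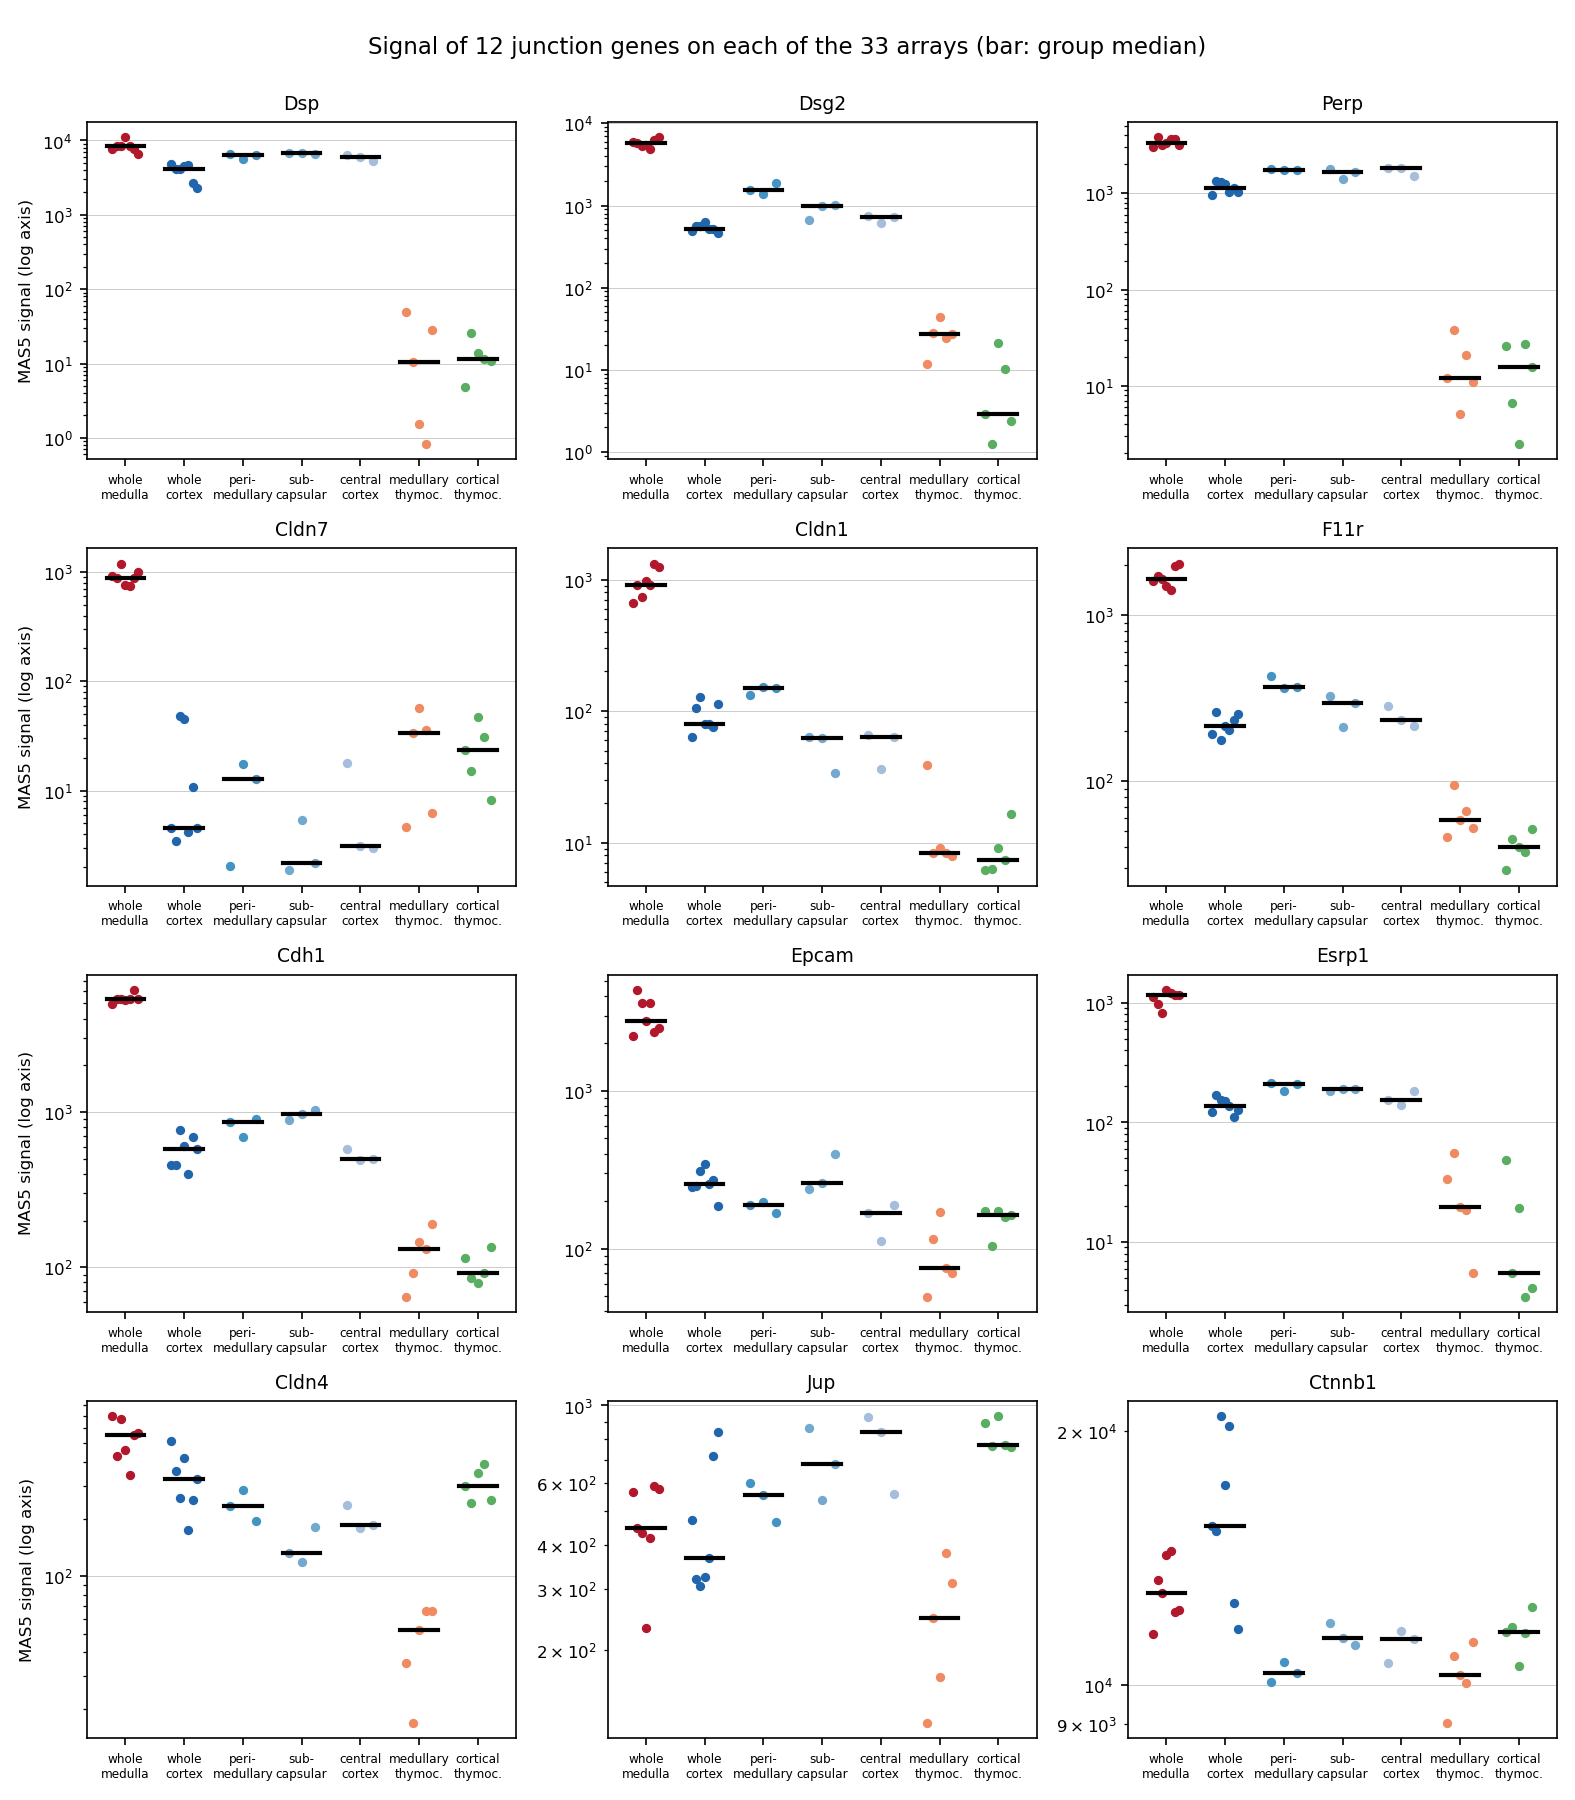
MAS5 signal (log axis) of 12 junction genes on each of the 33 arrays, 1 panel per gene and 1 point per array, by group, with a bar at the group median. Dsp, Dsg2 and Perp are low only in sorted thymocytes, Cldn7 is high only in whole medulla, and Cldn4 and Jup are higher in cortical than in medullary thymocytes.

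Tissue was then set against the thymocytes sorted for the same compartment. In whole medulla over medullary thymocytes, 27 of the 33 members rose and 0 fell (19.3% of all genes were called higher and 1.20% lower), with a median of 2.62, against 0.04 over all genes. In whole cortex over cortical thymocytes, 14 rose and 0 fell (9.57% of all genes were called higher and 1.51% lower), with a median of 0.85, against 0.10 over all genes. These comparisons share no arrays. The 14 members of the cortex comparison were all among the 27, that is 100% of the shorter list and 51.9% of the longer. Since the longer list holds 27 of the 33 members, most of the shorter would fall in it in any case. The overlap was not counted over all genes.

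Of the 11 desmosome genes, 8 rose in whole medulla over medullary thymocytes and 6 in whole cortex over cortical thymocytes. Dsp had 6490, 8311 and 11025 in whole medulla, against 0.83, 10.4 and 50.05 in medullary thymocytes (log2 fold change 7.66, SE 0.19, adjusted p = 5.37e-28). It had 2307, 4186 and 4899 in whole cortex, against 4.89, 11.51 and 25.8 in cortical thymocytes (log2 fold change 6.61, SE 0.19, adjusted p = 9.79e-26). No thymocyte array had Dsp, Dsg2, Dsc2, Dsc3, Perp or Pkp1 above the array median, and these 6 were called in both comparisons; the size of such a fold follows the tissue signal of the probe set and is not ranked between genes. In whole cortex over cortical thymocytes Perp rose by 4.84, Dsg2 by 4.08, Pkp1 by 4.01, Dsc2 by 3.31 and Dsc3 by 2.68. In whole medulla over medullary thymocytes the same genes rose by 6.34, 6.78, 5.26, 5.40 and 4.57.

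The tight junction gave different counts in the compartments. All 12 of its members tested rose in whole medulla over medullary thymocytes, but only Tjp1, F11r and Cldn1 rose in whole cortex over cortical thymocytes, by 2.32, 1.88 and 1.73, and the other Cldn1 probe set gave 0.86, not called. Of the 12, Cldn7, Cldn3, Marveld3 and Ocln passed the filter only with whole medulla arrays, which favours a call in medulla alone. For Cldn4 and Tjp3 the sorted reference differed as well. Cldn4 averaged 47.1 in medullary and 306 in cortical thymocytes, and Tjp3 115 and 303, while neither was called between the tissues. In the medulla comparison Marveld2 lost its call with quantile normalization (0.92), and Ocln did over the wide-tail arrays (adjusted p = 0.0552). Cldn7 showed 4.22 in the medulla comparison and -0.30 in that of the cortex, and Marveld2 1.30 and 0.00. Epcam showed 4.70 in the medulla comparison and 0.70 in that of the cortex, the second uncalled although the arrays did not overlap (188, 257 and 342 in whole cortex, against 104, 162 and 174 in cortical thymocytes). Cdh1 (5.23 in the medulla comparison and 2.20 in that of the cortex), Esrp1 (4.49 and 2.05), Grhl2 (2.40 and 1.87), Ctnnd1 (2.68 and 1.45) and Cdh3 (1.86 and 1.62) were called in both, but with plain suffix probe sets Ctnnd1 was 0.95 in the cortex comparison and not called. Pard6b, Crb3, Ctnnb1, Pkp3, Jup and Evpl were called in neither.

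The difference itself was tested with an interaction term of the same fit, the medulla-over-cortex change in tissue less the change in sorted thymocytes. It was called higher for 23 of 33 members and lower for 0 (12.6% of all genes were called higher and 2.22% lower). Of the 13 members called only in the medulla comparison it was called for 10, all but Ocln (1.06), Pkp2 (0.86) and Ppl, and of the 14 called in both for 12, all but Cdh3 and Grhl2. The remaining call was that of Jup, which was called in neither comparison. Among the 13, Cldn7, Marveld3, Pkp2, Cldn3 and Ocln passed the filter only with whole medulla arrays. With the mean of probe sets the interaction was also called for Ocln (1.73, adjusted p = 0.000244) and Pkp2 (1.29, adjusted p = 0.00375). It was called for Ocln over the arrays without a wide upper tail (1.50) and without whole cortex replicate 1 (1.28) or whole medulla replicate 4 (1.25). For Ppl it was called without cortical thymocyte replicate 5 (1.07) or whole cortex replicate 1 (1.01) or 7 (1.13). It was largest for Cldn7 (4.52, SE 0.38, adjusted p = 1.12e-11) and Epcam (4.01, SE 0.27, adjusted p = 5.04e-14). For Cgn, the weakest of these calls by p (1.12, adjusted p = 0.0411), it was lost on leaving out any of 11 single arrays, and it was 0.02 over the arrays without a wide upper tail. For Dsp (1.05) it was under the fold threshold on leaving out any of 6 single arrays, with 0.90 to 0.98. For Cldn12 it was 0.89 without whole cortex replicate 5, for Ctnnd1 0.98 and 0.96 without medullary thymocyte replicate 4 or whole cortex replicate 1, and for Marveld2 its adjusted p was 0.0529 without cortical thymocyte replicate 3. With the other Cldn1 probe set the term was 0.55 and not called for Cldn1.

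**Figure D3:**
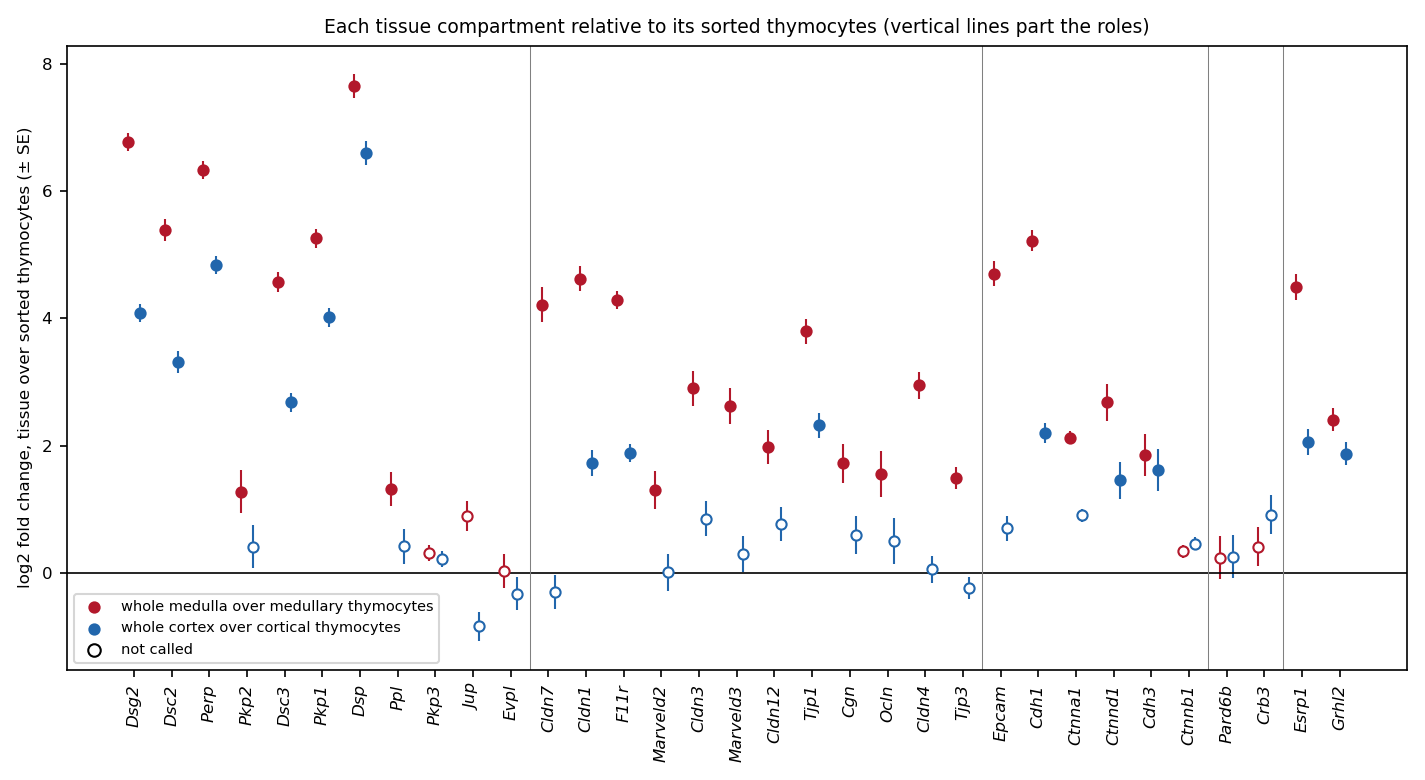
Fitted log2 fold change (± SE) of whole medulla over medullary thymocytes (7 and 5 arrays) and of whole cortex over cortical thymocytes (7 and 5 arrays) for each of the 33 members, in the order of the medulla over cortex plot. The desmosome genes Dsp, Dsg2, Perp, Pkp1, Dsc2 and Dsc3 are called in both, and most tight junction genes are called in medulla only. Among the latter, Cldn7, Cldn3, Marveld3 and Ocln passed the filter only with whole medulla arrays. Cldn4 and Tjp3, also among them, are lower in medullary than in cortical thymocytes and were not called between the tissues.

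Between the sorted thymocytes, 2 members were higher and 3 lower in medullary than in cortical cells (7.67% of all genes were called higher and 6.28% lower). Cldn4, a claudin also known from double-positive thymocytes of the mouse, had 34.9, 16.9, 52.5, 65.9 and 65.4 in medullary thymocytes, against 300, 242, 348, 388 and 251 in cortical thymocytes (log2 fold change -2.21, SE 0.23, adjusted p = 2.73e-10). Jup had 124, 247, 168, 379 and 311 in medullary thymocytes, against 891, 765, 930.5, 772.5 and 759 in cortical thymocytes (log2 fold change -1.73, SE 0.25, adjusted p = 6.05e-07). Tjp3 had 171, 112, 63.3, 124 and 104 in medullary thymocytes, against 309, 317, 313, 268 and 306 in cortical thymocytes (log2 fold change -1.27, SE 0.18, adjusted p = 4.9e-07). In these 3 genes every cortical array lay above every medullary one, while the tissue difference of Jup (0.01) and Tjp3 (0.47) was not called.

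Marveld2 and Cdh3 were the members higher in medullary thymocytes. Marveld2 had 98.7, 103, 101, 105 and 77.9 in medullary thymocytes, against 1.71, 41.8, 99.9, 23.7 and 17.8 in cortical thymocytes (log2 fold change 1.15, SE 0.32, adjusted p = 0.00361). Cdh3 had 96.0, 89.7, 20.5, 98.0 and 57.0 in medullary thymocytes, against 19.3, 19.8, 27.7, 21.1 and 5.85 in cortical thymocytes (log2 fold change 1.06, SE 0.36, adjusted p = 0.0157). In both genes the groups overlapped through 1 array, cortical replicate 3 for Marveld2 and medullary replicate 3 for Cdh3. Marveld2 was above the array median on 2 medullary and 1 cortical arrays, and Cdh3 on none of either. The call of Marveld2 was lost without cortical replicate 1 (0.90), and that of Cdh3 without cortical replicate 5 (0.95) or without medullary replicate 1, 2 or 4 (0.96, 0.98 and 0.96).

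Zones of the cortex were compared with each other. Perimedullary over subcapsular cortex had 1 member higher and 0 lower (2.91% of all genes were called higher and 1.66% lower), and perimedullary over central cortex 2 higher and 0 lower (1.31% of all genes were called higher and 0.0371% lower, 1.34% in all). The 1 member is 3.03% of the 33, close to the share of all genes, and the 2 are 6.06%. Subcapsular over central cortex had 0 called (0.847% of all genes were called higher and 0.446% lower, 1.29% in all), while 6 members had an unadjusted p below 0.05 there, 5 of them higher and Cldn3 lower. Cldn1 had 133, 152 and 151 in perimedullary cortex, against 63.3, 62.0 and 33.6 in subcapsular cortex (log2 fold change 1.14, SE 0.28, adjusted p = 0.00335) and 66.0, 36.1 and 64.0 in central cortex (log2 fold change 1.09, SE 0.28, adjusted p = 0.0203). Dsg2 had 1566, 1373 and 1901 in perimedullary cortex, against 676, 995 and 1004 in subcapsular cortex (0.85, not called) and 744, 618 and 730 in central cortex (log2 fold change 1.17, SE 0.20, adjusted p = 0.000185). For both genes all 3 perimedullary arrays lay above the others.

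The calls of Cldn1 rest on few arrays: over subcapsular cortex it was 0.95 without subcapsular replicate 3, and over central cortex the adjusted p was 0.203 without central replicate 2 and 0.0584, 0.0883 and 0.0843 without perimedullary replicates 1, 2 and 3. The weaker probe set of Cldn1 gave 0.81 (adjusted p = 0.119) over subcapsular and 0.26 (adjusted p = 0.951) over central cortex. With the mean of its probe sets Dsg2 was 0.62 over central cortex and not called. Cldn3 showed the lowest value of subcapsular over central cortex (log2 fold change -1.16, SE 0.38, adjusted p = 0.0591). Its signals were 8.84, 8.76 and 9.45 in subcapsular cortex, against 62.8, 33.2 and 66.1 in central cortex, all below the array median. Its other passing probe sets showed no such gap. They averaged 4.06, 6.88 and 9.36 in subcapsular cortex, against 6.76, 8.30 and 6.69 in central cortex. Cdh1 (884, 965 and 1039 in subcapsular cortex, against 579, 488 and 497 in central cortex; log2 fold change 0.85, SE 0.22, adjusted p = 0.0118) did not overlap but changed by less than the fold threshold.

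Over the 7 groups, 28 members were above the array median on every array of whole medulla, 18 on every array of whole cortex, 24 of perimedullary, 24 of subcapsular and 23 of central cortex, 5 of medullary and 8 of cortical thymocytes. These counts are a description, since Cldn7, Marveld3 and Pkp2 passed the filter through whole medulla arrays alone. Dsp was strong in all tissue, with 5698 to 6499 in perimedullary, 6637 to 6851 in subcapsular and 5340 to 6289 in central cortex. Perp had 1731 to 1770, 1397 to 1801 and 1518 to 1832 in the same 3 zones, and Cldn7 at most 18.0 in any of them. The arrays of the zones have a narrower upper range than the whole tissue arrays, and levels were not tested between them.

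Probe sets of 1 gene did not always agree across the cortical zones. The probe set that represented Epcam differed by -0.34 on the log2 scale between the mean of the 3 zones and whole cortex, and the other passing one by 2.44. The signals of this other probe set were 288, 400.1 and 737 in whole medulla (lowest, median and highest), 16.3, 155 and 239 in whole cortex, 635, 1411 and 1817 in perimedullary, 166, 857 and 1147 in subcapsular and 642, 937 and 953 in central cortex. Whole medulla was above whole cortex with both. For Dsg2 the probe sets spread over 2.45 in the same measure, and for Ctnnb1 over 1.60. The spread was 1.82 for Crb3, 1.49 for Pkp3 and 1.26 for Cldn12, and above 2 only for Epcam and Dsg2 of the 17 members with several passing probe sets. Values that set the zones against whole tissue thus depend on the probe set for several members. Between whole medulla and whole cortex the spread was above 2 for 3 members, F11r (2.89), Cldn1 (2.34) and Dsg2 (2.02).

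**Figure D4:**
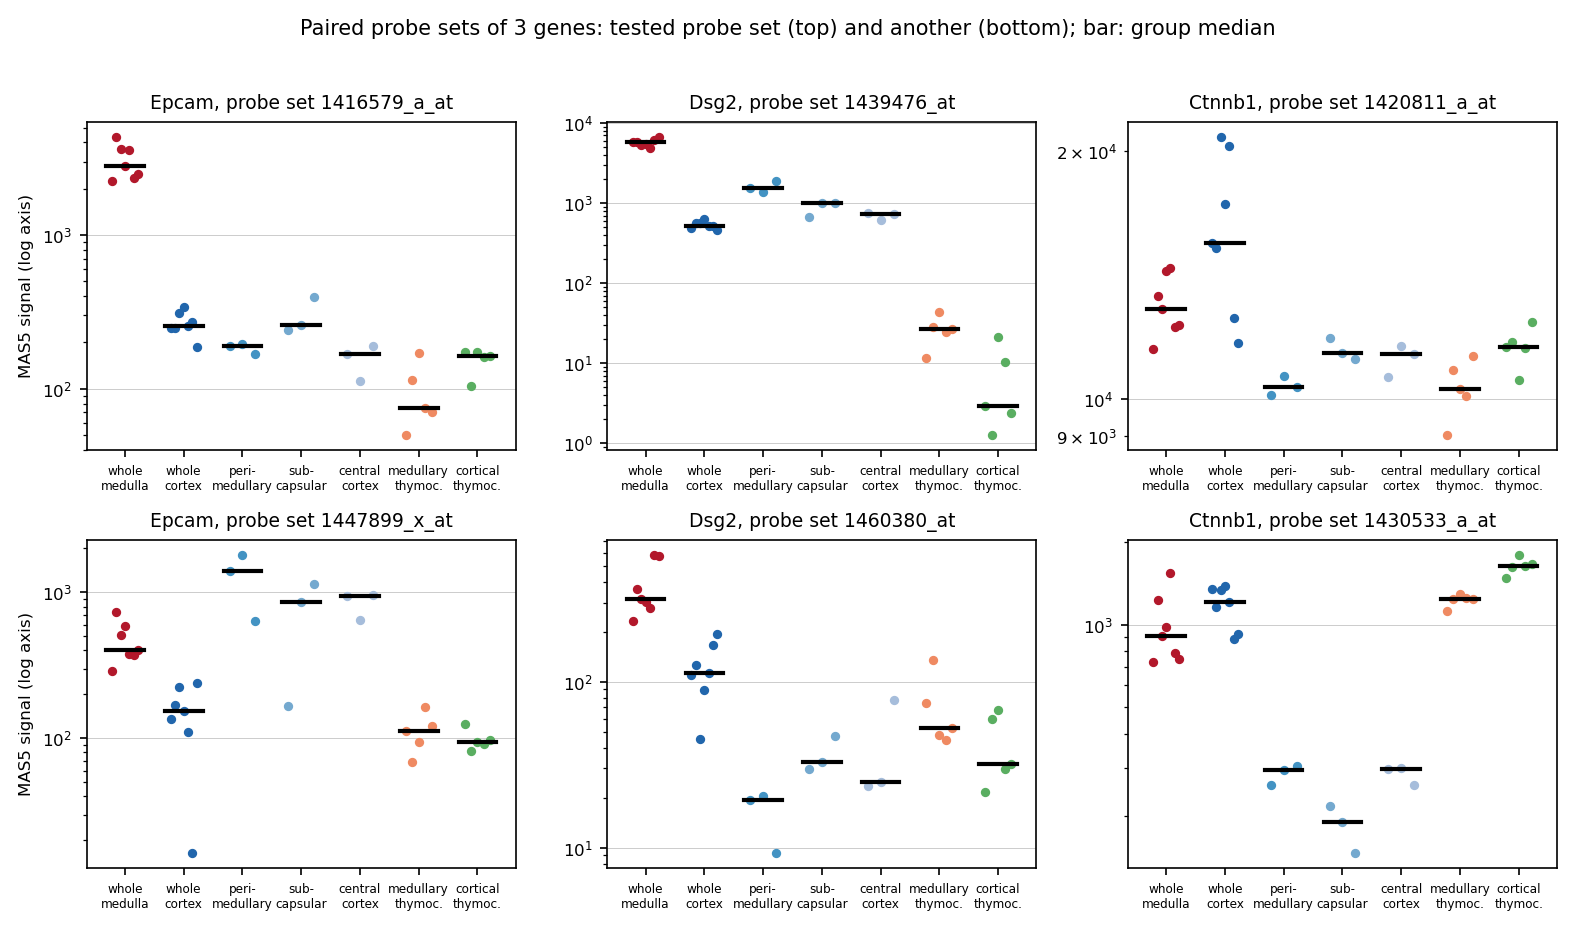
MAS5 signal (log axis) of a pair of probe sets each for Epcam, Dsg2 and Ctnnb1, 1 point per array, by group. The second Epcam probe set is higher in the cortical zones than in whole cortex, with a mean difference of 2.44, while the first differs by -0.34.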

How the data were processed

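RNA from 23 dissected tissue and 10 sorted cell samples was measured on 33 Affymetrix arrays. The deposited values are MAS5 signals, linear intensities that the authors made with Affymetrix Expression Console 1.0, per the submitters' processing notes. No further scaling was applied, and log2(signal + 26.2) was taken, the offset being the median of the arrays' 25th percentiles. Probe sets with 1 gene symbol that lay above their array's median on at least 3 arrays were kept, and the one with the highest mean represented its gene (13463 genes). All 7 groups entered 1 limma fit (3.58.1, R 4.3.3) with trended eBayes and Benjamini-Hochberg adjustment. Ratios to Epcam used exact permutation tests. The members and gene lists were chosen with earlier results of these data known. Any member could be named, with per-array values for the 3 largest medulla over cortex changes of each role and for members called elsewhere; other junction genes were named for the 2 largest calls each way. Precision is limited by how many arrays there are. The fit was tested on simulated data. No label pairs arrays by replicate number, and the main fit did not pair them. Same-numbered medulla and cortex arrays deviated together with r of -0.0326 to 0.256. Of these 7 pairs, 3 correlated best with their own number, as did 3 of 3 pairs of subcapsular and central cortex. Pairing can therefore not be excluded. Alternatives covered the offset, normalization, filter, probe set choice, groups fitted, replicate block, array weights, the wide upper tail and leaving out each array.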

Additional observations from a re-analysis of the deposited data

Results flagged for a closer look

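In 16 of 132 groups of member signals, 1 array stood apart from the others of its group by Dixon's criterion, which chance gives in about 1 of 20 groups. In whole medulla these were Cdh1 on replicate 6 (6099), Dsc3 on replicate 1 (588), Marveld3 on replicate 3 (174), and replicate 4 for Ctnnd1 (296), Evpl (14.4) and Jup (232). In whole cortex they were Cgn on replicate 2 (11.8) and Cldn12 on replicate 5 (7.39). In medullary thymocytes they were Cldn1 on replicate 1 (39.2), Ppl on replicate 2 (35.7), and replicate 5 for Marveld2 (77.9) and Pkp2 (8.12). In cortical thymocytes they were Dsc2 on replicate 3 (15.7), Tjp3 on replicate 4 (268), and replicate 2 for Crb3 (19.8) and Epcam (104).

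The medulla over cortex difference of tissue exceeded that of sorted thymocytes, by the interaction term of the limma fit, for 23 members. On the log2 scale the excess was 4.52 for Cldn7, 4.01 for Epcam, 3.03 for Cdh1, 2.90 for Cldn1, 2.89 for Cldn4, 2.70 for Dsg2, 2.44 for Esrp1, 2.40 for F11r and 2.33 for Marveld3. It was 2.08 for Dsc2, 2.06 for Cldn3, 1.89 for Dsc3, 1.74 for Jup, 1.73 for Tjp3, 1.50 for Perp, 1.48 for Tjp1 and 1.30 for Marveld2. It was 1.25 for Pkp1, 1.23 for Ctnnd1, 1.22 for Ctnna1, 1.21 for Cldn12, 1.12 for Cgn and 1.05 for Dsp. For Cldn4, Jup and Tjp3 the tissue difference itself was 0.68, 0.01 and 0.47 and not called. These genes were called lower in medullary than in cortical thymocytes.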

How the results depend on the processing

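Of 5888 values of single members under the alternatives, 5746 kept their direction and side of the threshold, 78 lost a call, 60 gained one and 4 reversed. With the replicate block 22 members were called in whole medulla over whole cortex, and the block changed 1 call of whole cortex over cortical thymocytes, where 1 member, Jup, was lower; apart from Cldn3, below, it changed no other call of a member. Leaving out each array in turn gave 21 to 24 members higher in medulla over cortex, 14 to 16 in cortex and 27 to 28 in medulla over their thymocytes, 1 to 3 higher and 3 to 4 lower in medullary over cortical thymocytes, 21 to 24 in the interaction, 0 to 1 and 1 to 2 in perimedullary over subcapsular and over central cortex, and 26 to 28 lower relative to Epcam. Fewer genes pass the stricter filter (above the median on 7 arrays and above the 75th percentile on 1): 2007 were then called in medulla over cortex, 907 in cortex and 1368 in medulla over their thymocytes (17 members) and 1085 in the interaction. In medullary over cortical thymocytes 4 members were higher with the smaller offset, 1 with quantile normalization, 1 with the upper tail as a covariate and 0 with the stricter filter. In perimedullary over subcapsular cortex 0 were higher with the mean of probe sets or the probe sets with a plain suffix, and over central cortex 1 with the smaller offset, quantile normalization or plain suffix and 0 with the mean of probe sets. In subcapsular over central cortex 1 member, Cldn3, was lower with the smaller offset, quantile normalization, only the groups compared, the replicate block, array weights, the upper tail as a covariate or only arrays without a wide tail. All of these settings used the same Cldn3 probe set, and its other passing probe sets showed no such gap. With Krt8 and Krt18 in place of Epcam 26 members were higher and 0 lower, and Cdh1 (3.27), Cldn1 (3.11), Dsg2 (3.41) and Dsp (1.16) reversed; the other denominator makes this a different ratio. The cause of the other changes was not tested.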

Other observations

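Among the 59 other junction and epithelial genes tested, 36 were called higher in whole medulla over medullary thymocytes and 0 lower (19.3% and 1.20% of all genes). The rises were led by Snai2 (4.92 on the log2 scale), a transcription factor of the Snail family, and Trp63 (4.90), the p63 factor of stratified and thymic epithelium. In whole cortex over cortical thymocytes 19 were higher and 0 lower (9.57% and 1.51% of all genes), led by Lima1 (3.78), an actin-binding protein, and Trp63 (3.39). In medullary over cortical thymocytes 3 were higher and 7 lower (7.67% and 6.28% of all genes). Itgae (5.74) and Afdn (1.10), the adherens junction protein afadin, led the first, and Nectin3 (-1.73), a cell adhesion molecule, and Patj (-1.33), a polarity scaffold, the second. Within the cortex Itgae was higher in perimedullary over subcapsular (3.56) and over central cortex (3.10), and Patj lower in subcapsular over central cortex (-1.05). Each was the only call of the 59 there, where 2.91%, 1.31% and 0.446% of all genes were called in that direction.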
